A study of Mus musculus with 56 samples.

Results

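The bacteria in the large intestinal (LI) contents of melanocortin 4 receptor knockout (MC4R KO) mice were compared between 8 animals on a Western diet (KO-WD) and 8 on a normal diet (KO-ND). The 16 libraries were chosen by their labels (genotype, diet and site) out of 56 libraries of 28 mice, which also hold the small intestinal (SI) contents of the same mice and both sites of wild-type mice (WT-WD and WT-ND, 6 mice each). All mice were male. Those of both KO groups carried the same deletion and differed only in diet, which started at 10 weeks of age and lasted 12 weeks, after a shared run-in on chow and then on the normal diet. Mice were housed singly, so that each library is 1 mouse and 1 cage, and the contents came from 4 cm of gut just past the midpoint between cecum and anus. Food intake was not measured in the study. MC4R is a receptor of hypothalamic neurons that restrains feeding, and its loss makes mice overeat and gain fat, so that the comparison asks what a Western diet did to the gut bacteria of animals that were already prone to obesity.

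The colon holds a dense, mostly anaerobic community. Members of Clostridia (Lachnospiraceae, Ruminococcaceae, Clostridiaceae) ferment fibre, and many of them make butyrate. Bacteroidales, which in mice are largely Muribaculaceae (listed in the taxonomy as S24-7), break down complex plant and host glycans. Bifidobacterium and the lactic acid bacteria ferment sugars to lactate and acetate, Akkermansia and Mucispirillum live in or near mucus, and Desulfovibrionaceae reduce sulfate to sulfide. Diet is known to set much of the balance between these groups, since fibre and simple sugar reach the colon in different amounts.

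The V3–V4 part of the 16S rRNA gene was sequenced, and each distinct sequence left after denoising is an amplicon sequence variant (ASV), whose count is its number of reads. Library totals were 22550 to 35236 (median 29181.5) in KO-WD LI and 25776 to 33119 (median 29834) in KO-ND LI. The 16 libraries held 517 ASVs in 51 genera and 35 families, where ASVs without a genus name were pooled under their family or order and are written here as unnamed. A taxon's share is its percent of a library's total. A share is relative: less of one taxon and more of all others cannot be told apart, and bacterial load was not analysed here. A taxon without counts in a group was taken to lie below 3 counts out of all those of the group, 0.00129% in KO-WD and 0.00126% in KO-ND, a limit that covers counting error only, because amplified reads were not collapsed to single molecules. The limit is approximate, because the lowest count above 0 in the table was 2 and single reads may be missing.

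The labelled site was checked by taxa typical of the colon, with SI and LI libraries matched by sample number. Bacteroidia had a median share of 17.5% in LI and 0% in SI in KO-WD mice, and of 21.4% in LI and 0.345% in SI in KO-ND mice, and were higher in LI in 8 of 8 mice of each diet. Lachnospiraceae were likewise higher in LI in 8 of 8 mice of each diet, with medians of 6.77% in LI and 0.0539% in SI in KO-WD mice. Clostridia were higher in LI in 7 of 8 KO-WD mice and 6 of 8 KO-ND mice, with medians of 29.2% in LI and 14.1% in SI in KO-WD mice, and of 24.4% in LI and 5.66% in SI in KO-ND mice. One library of each diet stood apart. The mean Bray-Curtis distance (0 for identical and 1 for disjoint communities) to the rest of its own group was 0.591 for KO-WD 5 and 0.699 for KO-ND 5, against at most 0.464 for the other KO-WD libraries and 0.532 for the other KO-ND libraries. KO-WD 5 had no Muribaculaceae and 0.148% Lactobacillus, and KO-ND 5 had 0.287% Allobaculum and 0.00936% Bifidobacterium. Results that rest on these libraries are given with and without them where such a fit was run.

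**Figure D1:**
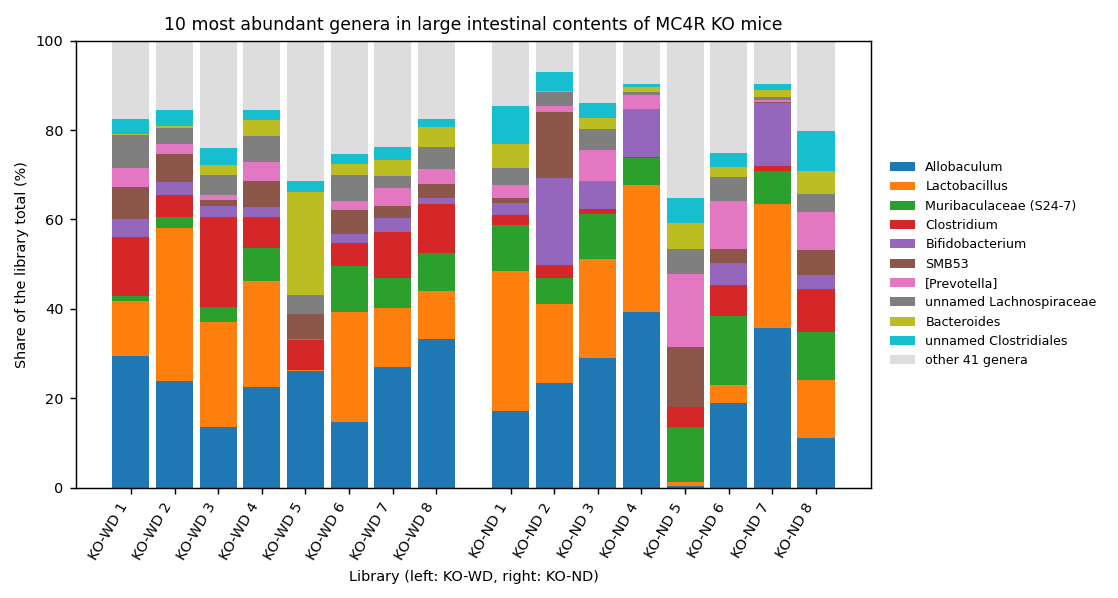
Shares of the 10 most abundant genera in each of the 16 libraries, as percent of the library total (vertical axis, stacked bars; KO-WD mice on the left, KO-ND mice on the right). Allobaculum and Lactobacillus were the largest genera of both diets by mean share, and the bars of KO-WD 5 and KO-ND 5 differ from those of their own groups.

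Allobaculum and Lactobacillus made up much of the community on both diets, and neither differed beyond the spread between mice. Allobaculum, a member of Erysipelotrichaceae that ferments sugars, was 13.5% to 33.1% (median 25.02%) in KO-WD and 0.287% to 39.3% (median 21.2%) in KO-ND. Its log2 fold change, KO-WD over KO-ND, was 0.12 ± 0.58 (SE), with an adjusted p of 0.985, and was -0.84 in DESeq2 and -0.63 with TMM factors. Lactobacillus, a lactic acid bacterium of the upper gut and colon of mice, averaged 17.8 ± 10.7% in KO-WD and 18.2 ± 11.4% in KO-ND (SD, n = 8 each), with a log2 fold change of -0.03 ± 0.72. These and all further fold changes of taxa come from edgeR's quasi-likelihood test on raw counts scaled by library totals, with p adjusted by Benjamini-Hochberg over the taxa of a rank, and a taxon was called at an adjusted p under 0.05.

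At the level of phyla, 0 of 8 passed the test (0% called; 1 at an unadjusted p under 0.05, 0 by DESeq2 and 0 by limma on centred log ratios). Firmicutes, which hold most fermenting Gram-positive bacteria of the gut, were 57.4% to 84.99% (median 75.1%) in KO-WD and 50.0% to 70.4% (median 66.5%) in KO-ND. The edgeR estimate was 0.24 ± 0.09 on the log2 scale (adjusted p 0.157), which became 0.29 with an adjusted p of 0.0287 without KO-WD 5. Actinobacteria, here mainly Bifidobacterium and Coriobacteriaceae, were 1.38% to 7.88% (median 2.89%) in KO-WD and 0.00936% to 21.1% (median 8.27%) in KO-ND. All 8 KO-WD mice lay below the KO-ND median. The ranges overlapped: KO-ND 5 was the lowest of all 16 mice, and KO-WD 2 (7.88%) and KO-WD 3 (4.64%) also lay above KO-ND 1 (4.35%). The log2 fold change of Actinobacteria was -1.60 ± 0.77 (adjusted p 0.211; 0.16 on centred log ratios), and without KO-ND 5 it was -1.79 ± 0.49 (adjusted p 0.0144). With KO-WD 5 and KO-ND 5 both left out, which was decided after seeing the data, both phyla passed, Firmicutes as higher and Actinobacteria as lower in KO-WD (adjusted p 0.0149 each).

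Bacteroidetes, the main glycan degraders, averaged 14.7 ± 6.63% in KO-WD and 21.1 ± 10.7% in KO-ND, with a log2 fold change of -0.52 and an adjusted p of 0.275 (0.15 on centred log ratios). The ratio of Firmicutes to Bacteroidetes, often used as a summary of diet effects, was 2.48 to 14.3 (median 4.18) in KO-WD and 1.31 to 8.54 (median 3.16) in KO-ND. The mean log2 ratio was 2.51 ± 0.95 in KO-WD and 1.77 ± 0.98 in KO-ND (SD, n = 8 each), a difference of 0.74 that was within the spread (exact two-sided permutation test, p = 0.145; above the KO-ND median in 7 of 8 KO-WD mice). Proteobacteria averaged 4.42 ± 5.34% in KO-WD and 2.59 ± 2.05% in KO-ND (adjusted p 0.465). Their difference came with 1 library, since KO-WD 5 held 17.2%, the other KO-WD mice averaged 2.59 ± 1.44% (n = 7), and the log2 fold change without it was -0.0012.

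The 4 smaller phyla were patchy. Verrucomicrobia (Akkermansia) were found in 4 of 8 KO-WD and 3 of 8 KO-ND mice, with an adjusted p of 0.977. Deferribacteres (Mucispirillum) were found in 3 of 8 KO-WD and 5 of 8 KO-ND mice, with a log2 fold change of 2.82 and an adjusted p of 0.258 (-0.28 in DESeq2). The higher KO-WD mean of Deferribacteres came from KO-WD 5 alone, at 0.945%. TM7 (Saccharibacteria, small bacteria that live on the surface of other bacteria) were found in 5 of 8 KO-WD and 8 of 8 KO-ND mice, averaging 0.0966% in KO-WD and 0.153% in KO-ND (adjusted p 0.702). Tenericutes, wall-less relatives of Firmicutes, were found in 1 of 8 KO-WD and 6 of 8 KO-ND mice (-2.78 on the log2 scale, adjusted p 0.258). Without KO-WD 7, the only KO-WD mouse that had them, Tenericutes passed the test as lower, with an adjusted p of 0.00354.

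Of the classes, 0 of 13 passed the test (0% called; 0 at an unadjusted p under 0.05, 0 by DESeq2, 0 by limma on centred log ratios, and 0 by the exact rank-sum test after adjustment). Clostridia were 22.8% to 39.2% (median 29.2%) in KO-WD and 2.23% to 36.9% (median 24.4%) in KO-ND, and their log2 fold change was 0.55. Bacilli averaged 20.9% on both diets and Erysipelotrichi 23.8% in KO-WD and 21.9% in KO-ND. The adjusted p of every class was at least 0.598. With KO-WD 5 and KO-ND 5 left out, the classes Actinobacteria and Betaproteobacteria passed as lower in KO-WD (adjusted p 0.0280 each).

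Of the families, 0 of 27 passed (0% called; 2 at an unadjusted p under 0.05, 0 by DESeq2 and 0 by limma on centred log ratios), and of the genera 0 of 39 (0% called; 3 at an unadjusted p under 0.05, all higher in KO-WD, 0 by DESeq2 and 1 by limma on centred log ratios). The exact two-sided rank-sum test with Benjamini-Hochberg adjustment, which reads only the order of the mice, called 1 family and 2 of the 39 genera (5.13%). The genera were Lactococcus and Adlercreutzia, and the family was Streptococcaceae, which Lactococcus belongs to. Over all 39 tested genera, 25 had a log2 fold change above 0 and 14 below 0, with a median of 0.30. That median was 0.36 with TMM factors, 0.19 in DESeq2 and 0.17 on centred log ratios, so that the log2 fold changes of genera here stand against a general shift of about this size.

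Lactococcus, a lactic acid bacterium of milk and cheese, had a higher share in KO-WD by the rank-sum test but not by edgeR. Its share was 0.748% to 9.64% (median 1.27%) in KO-WD and 0.175% to 1.12% (median 0.428%) in KO-ND. All 8 KO-WD mice lay above the KO-ND median, and the ranges overlapped. In edgeR it was 2.24 ± 0.66 on the log2 scale (p 0.0031, adjusted p 0.120). By ranks, the exact two-sided test gave p = 0.00109 (adjusted 0.0212). KO-WD 3 held 9.64%. Without it the other KO-WD mice averaged 1.32 ± 0.538% (n = 7), the log2 fold change was 1.40, and the adjusted p of edgeR was 0.341. In DESeq2 the adjusted p was 0.638 with a log2 fold change of 0.62, and with all 4 LI groups in 1 fit Lactococcus passed (adjusted p 0.0230).

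The other lactic acid bacterium tested besides Lactobacillus and Lactococcus was Streptococcus, a genus of mouth and gut, found in 6 of 8 mice of each diet at means of 0.0618% in KO-WD and 0.0255% in KO-ND. Of the 10 taxa listed as lactic acid bacteria, 3 had counts and 0 were called by edgeR. Of those 3, Lactococcus and Streptococcus had a log2 fold change above 0, and the median of the 3 was 1.27, against 0.30 over all genera. Their summed share barely differed, with a median of 19.9% in KO-WD and 20.6% in KO-ND, because Lactobacillus made up most of it.

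Adlercreutzia, a genus of Coriobacteriaceae known for turning soy isoflavones into equol, was the only 1 of the 39 tested genera (2.56%) whose groups did not overlap. It was 0.0447% to 0.200% (median 0.0831%) in all 8 KO-WD mice, and 0% to 0.0423% (median 0%) in KO-ND mice, of which 2 of 8 had any. The log2 fold change was 3.28 ± 1.23 with an adjusted p of 0.301 in edgeR. The gap was narrow, from 0.0423% (highest KO-ND share) to 0.0447% (lowest KO-WD share). At such low shares a few reads decide whether the groups overlap. The exact rank-sum p was 0.000155, the smallest that 8 against 8 mice can give (adjusted 0.00606). Groups that do not overlap always have that p, so it is not separate support. In limma on centred log ratios the adjusted p of Adlercreutzia was 0.00153. The other Actinobacteria of the gut went the opposite way in mean share. Bifidobacterium, which ferments plant and milk oligosaccharides, was 0.148% to 4.12% (median 2.42%) in KO-WD and 0.00936% to 19.4% (median 5.48%) in KO-ND. None of the 8 KO-WD mice reached the KO-ND median, and KO-ND 5 was below all of them. The log2 fold change of Bifidobacterium was -1.73 ± 0.83 (adjusted p 0.409), and -1.92 without KO-ND 5 (adjusted p 0.105). Unnamed Coriobacteriaceae averaged 1.09% in KO-WD and 2.95% in KO-ND, with a log2 fold change of -1.44 (adjusted p 0.663). Of the 5 taxa listed in this group 3 had counts, 1 had a log2 fold change above 0 and 2 below 0, and their summed share had a median of 2.89% in KO-WD and 8.27% in KO-ND.

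**Figure D2:**
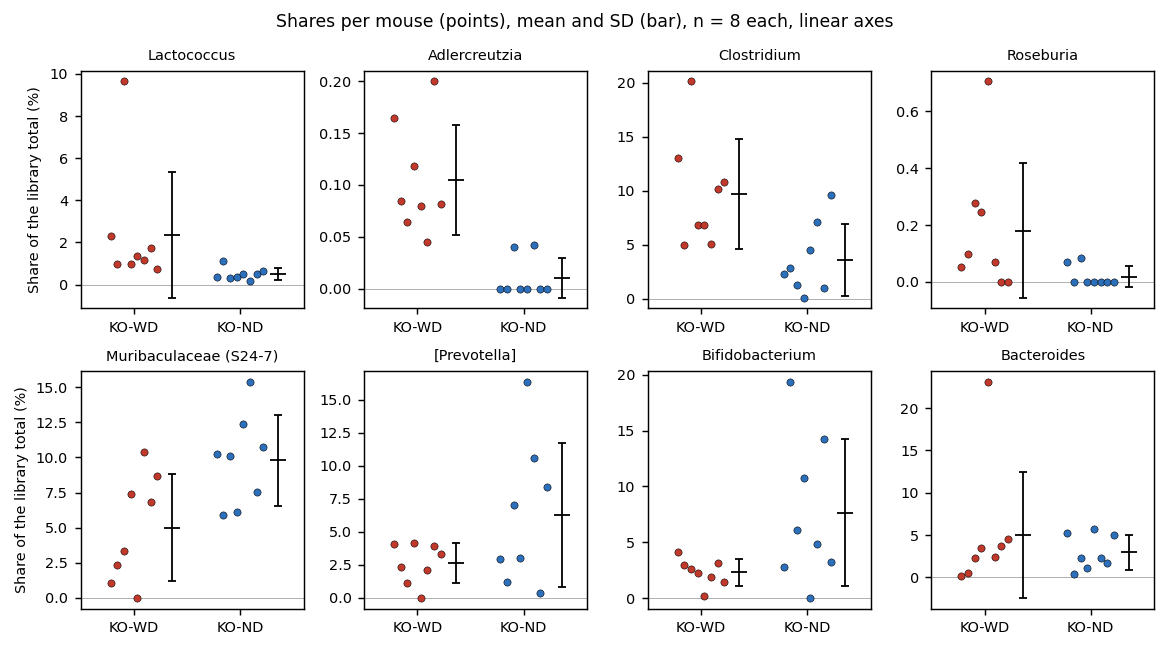
Shares of 8 genera in percent of the library total, one point per mouse with mean and SD (n = 8 each; KO-WD red and left, KO-ND blue and right; each panel has its own linear axis). The KO-WD points of Adlercreutzia lie above all KO-ND points, those of Clostridium and Lactococcus lie above the KO-ND median, and 1 point each of KO-WD 5 (Bacteroides) and KO-WD 3 (Lactococcus) lies far from the rest.

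The Clostridiaceae genera differed among themselves, and 0 were called. Clostridium, whose main ASV here was assigned to C. celatum, was 4.95% to 20.1% (median 8.50%) in KO-WD and 0.116% to 9.63% (median 2.60%) in KO-ND. All 8 KO-WD mice lay above the KO-ND median, but the ranges overlapped from 4.95% to 9.63%, which includes the KO-WD median. Its edgeR estimate was 1.43 ± 0.66 on the log2 scale, at an adjusted p of 0.409 (0.135 by exact rank-sum test). Unnamed Clostridiaceae had the same pattern, 2.21 ± 1.09% in KO-WD and 0.800 ± 0.755% in KO-ND, with 8 of 8 KO-WD mice above the KO-ND median and a log2 fold change of 1.47 (adjusted p 0.578). SMB53, a Clostridiaceae genus of uncertain role, averaged 4.68 ± 2.04% in KO-WD and 4.77 ± 6.09% in KO-ND (log2 fold change -0.03, and 2.87 on centred log ratios). Turicibacter, a spore former of the Firmicutes that interacts with host lipids and serotonin, was found in 8 of 8 KO-WD mice at 0.621% on average and in 3 of 8 KO-ND mice, with 11.3% in KO-ND 5, 5.30% in KO-ND 8 and 1.11% in KO-ND 6 and a group mean of 2.21%. Its log2 fold change of -1.83 (adjusted p 0.654) was -0.56 without KO-ND 5 (adjusted p 0.856), and it changed sign in the rank-sum test and on centred log ratios. Of the 7 taxa listed here (Clostridiaceae, Peptostreptococcaceae and Turicibacter), 4 had counts and 0 were called.

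The Lachnospiraceae and Ruminococcaceae, the main butyrate producers of the mouse colon, had no called genus. Of the 11 Lachnospiraceae taxa listed, 5 had counts and were tested, all 5 had a log2 fold change above 0 (median 0.74, against 0.30 over all genera), and 0 were called. [Ruminococcus], which includes degraders of mucin, was 1.54 ± 0.489% in KO-WD and 0.917 ± 0.614% in KO-ND and was above the KO-ND median in 8 of 8 KO-WD mice (0.74 on the log2 scale, adjusted p 0.578). Roseburia, a butyrate producer, was found in 6 of 8 KO-WD and 2 of 8 KO-ND mice, averaging 0.181% in KO-WD and 0.0193% in KO-ND, with a log2 fold change of 3.20 and an adjusted p of 0.409. Unnamed Lachnospiraceae averaged 4.87 ± 1.53% in KO-WD and 3.56 ± 1.96% in KO-ND (adjusted p 0.698). Of the 8 Ruminococcaceae taxa listed, 4 had counts, 3 had a log2 fold change above 0 and 1 below 0, and 0 were called. Ruminococcus, which holds cellulose and starch degraders, averaged 2.15% in KO-WD and 1.06% in KO-ND, and its log2 fold change of 1.02 (adjusted p 0.663) was -0.15 without KO-WD 6, which held 10.5%. Oscillospira, a slow-growing anaerobe, averaged 1.56% in KO-WD and 1.10% in KO-ND (adjusted p 0.698). Unnamed Clostridiales averaged 2.78 ± 0.697% in KO-WD and 4.54 ± 3.07% in KO-ND, 0 of 8 KO-WD mice were above the KO-ND median, with a log2 fold change of -0.71 at an adjusted p of 0.578.

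The Bacteroidales genera had log2 fold changes on both sides of 0. Unnamed Muribaculaceae, the glycan degraders that lead this order in mice, were 0% to 10.4% (median 5.08%) in KO-WD and 5.92% to 15.4% (median 10.2%) in KO-ND. Their log2 fold change was -0.97 ± 0.83 at an adjusted p of 0.654, the unadjusted exact rank-sum p was 0.0379 (adjusted 0.211), and only 1 of 8 KO-WD mice was above the KO-ND median. The lowest value belonged to KO-WD 5, and without it the KO-WD mean was 5.72 ± 3.51% (n = 7) and the log2 fold change -0.77 (adjusted p 0.493). [Prevotella], a Bacteroidales genus of uncertain placement in this taxonomy, averaged 2.64 ± 1.52% in KO-WD and 6.25 ± 5.43% in KO-ND, with 0 of 8 KO-WD mice above the KO-ND median (log2 fold change -1.24, adjusted p 0.578). Bacteroides, which degrades a wide range of glycans, averaged 5.04 ± 7.46% in KO-WD and 2.96 ± 2.06% in KO-ND, and KO-WD 5 alone held 23.1%. Without that library the KO-WD mean of Bacteroides was 2.46 ± 1.63% (n = 7), and the log2 fold change was -0.27, against 0.77 with it and -0.24 with it on centred log ratios. Of the 12 Bacteroidales taxa listed, 7 had counts, 3 had a log2 fold change above 0 and 4 below 0, the median was -0.42, and 0 were called. The summed share of those 7 had a median of 17.1% in KO-WD and 21.2% in KO-ND.

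The remaining groups were small or uneven. Unnamed Desulfovibrionaceae, sulfate reducers that give off hydrogen sulfide, were 0.918% to 16.6% (median 3.13%) in KO-WD and 0.463% to 6.48% (median 2.07%) in KO-ND. The estimate of edgeR was 0.79 on the log2 scale at an adjusted p of 0.654, and without KO-WD 5, which held the 16.6%, it was 0.04 (adjusted p 0.958). Akkermansia, a mucin degrader, was found in 4 of 8 KO-WD mice at up to 8.49% and in 3 of 8 KO-ND mice at up to 8.58%, and averaged 1.79% in KO-WD and 1.71% in KO-ND. Mucispirillum, which lives in the mucus layer and is the genus behind the Deferribacteres above, averaged 0.126% in KO-WD and 0.0174% in KO-ND. Of the 12 taxa listed as bacteria of skin, soil and air or plant organelles, 1 (Staphylococcus) had counts, in 2 of 8 KO-WD mice at up to 0.0314% and in 0 of 8 KO-ND mice.

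Within KO LI, single ASVs gave the only calls of the edgeR test. Of 188 tested ASVs, 5 passed (2.66%; 13 at an unadjusted p under 0.05), of which 3 were higher (1.6%) and 2 lower (1.06%) in KO-WD. DESeq2 called 8 (3 higher, 5 lower), limma on centred log ratios 12 (5 higher, 7 lower), and the exact rank-sum test 8 (4.26%; 3 higher, 5 lower). Each of the 5 was present on one diet and had no counts on the other, so that each passed the filter on low counts only through the diet that had it. Over all 188, 94 had a log2 fold change above 0 and 94 below 0, with a median of 0.0012. For an ASV absent from a group the fold is a bound, taken against 3 counts summed over that group. The table holds no count of 1, so single reads may be missing and the bound is approximate. Below, "at least" is meant against that limit only.

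The 3 ASVs higher in KO-WD were all Clostridia, a class that also held many of the 188 tested ASVs. These included 41 of Lachnospiraceae, 32 of Ruminococcaceae, 25 of unnamed Clostridiales and 7 of Clostridiaceae. This is thus not a result about the class, which was not called (adjusted p 0.598). ASV_094, an unnamed Lachnospiraceae ASV, had 0 to 440 counts (median 88.5) in KO-WD, in 7 of 8 mice, and 0 in all KO-ND mice. KO-WD 5 was the mouse without it. It was at least 311-fold higher in KO-WD (edgeR adjusted p 0.00291), and no LI library of WT mice had counts of it. ASV_089, assigned to Clostridium celatum, had 0 to 180 counts (median 44.5) in KO-WD, in 4 of 8 mice, and 0 in KO-ND, at least 164-fold higher (adjusted p 0.0226). ASV_116, of the Clostridiaceae genus SMB53, had 0 to 110 counts (median 28) in KO-WD, in 4 of 8 mice, and 0 in KO-ND, at least 115-fold higher (adjusted p 0.0288). ASV_089 (in KO-WD 4, KO-WD 5, KO-WD 6 and KO-WD 7) and ASV_116 (in KO-WD 2, KO-WD 4, KO-WD 5 and KO-WD 6) each had counts in exactly the 4 libraries that the filter asks for, so that with any of these left out they were no longer tested. Both had a rank-sum adjusted p of 0.413.

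The ASVs lower in KO-WD were 1 Muribaculaceae and 1 Lachnospiraceae ASV. ASV_112, a Muribaculaceae ASV, had 0 counts in all KO-WD mice and 0 to 324 counts (median 120.5) in KO-ND, in 7 of 8 mice. It was at least 379-fold lower in KO-WD (adjusted p 0.00291). ASV_166, an unnamed Lachnospiraceae ASV, had 0 counts in all KO-WD mice and 0 to 123 counts (median 61) in KO-ND, in 7 of 8 mice, at least 172-fold lower (adjusted p 0.00526). Lachnospiraceae thus held called ASVs of both directions. ASV_094, ASV_112 and ASV_166 passed in all 26 alternatives run for each of them, with adjusted p up to 0.0329. These alternatives are not independent, since they reuse the same mice and most leave out 1 mouse. They also include the unadjusted rank-sum test and the fit without a filter, which called 251 of 517 ASVs. Each of these ASVs had no counts on 1 diet and passed the filter only through the other.

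**Figure D3:**
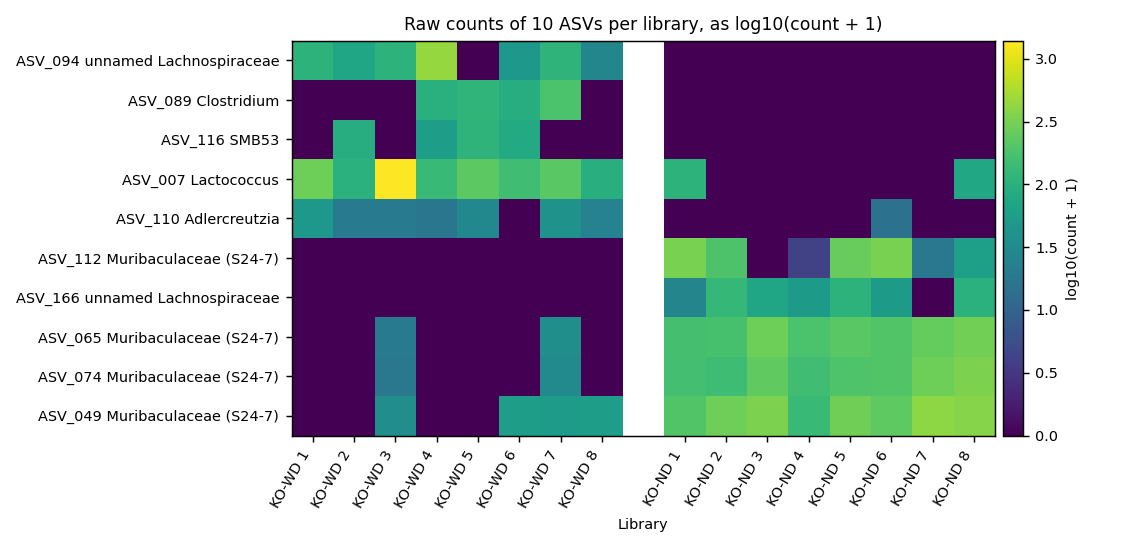
Raw counts of 10 ASVs in the 16 libraries, coloured by log10(count + 1) (KO-WD mice on the left and KO-ND mice on the right, 1 row per ASV). ASV_094, ASV_089, ASV_116, ASV_007 and ASV_110 have counts mainly in KO-WD mice and ASV_112, ASV_166, ASV_065, ASV_074 and ASV_049 mainly in KO-ND mice; ASV_089 and ASV_116 have counts in only 4 KO-WD mice.

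The 3 of 188 ASVs (1.6%) whose groups did not overlap were all Muribaculaceae, a family with 31 of the 188 tested ASVs. They were named after their values were seen, except ASV_049, which the naming rule took. ASV_065 had 0 to 36 counts (median 0) in KO-WD, in 2 of 8 mice, and 165 to 299 counts (median 206) in all 8 KO-ND mice. ASV_074 had 0 to 30 counts (median 0) in KO-WD and 148 to 332 (median 191.5) in KO-ND. ASV_049 had 0 to 56 counts (median 17.5) in KO-WD, in 4 of 8 mice, and 129 to 405 (median 285) in KO-ND. Every KO-WD value lay below every KO-ND value for these ASVs. The edgeR adjusted p was 0.111 for ASV_065, 0.0980 for ASV_074 and 0.425 for ASV_049, while the rank-sum test, DESeq2 and limma on centred log ratios called all 3 (rank-sum adjusted p 0.00974 each). Groups that do not overlap always have the smallest rank-sum p that the design can give. The rank-sum call thus restates how these ASVs were picked and is not separate support. Where both were found, ASV_074 had 83.3 and 89.5 counts per 100 counts of ASV_065 in the 2 KO-WD mice and 84.7 to 113 (median 91.9) in the 8 KO-ND mice, so the ratio in one KO-WD mouse lay just below the KO-ND range and in the other within it. ASV_065 and ASV_074 were found in the same mice at similar ratios, so they are not separate results. None of the 3 had counts in WT LI.

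Of the 31 tested Muribaculaceae ASVs, 22 had a log2 fold change below 0 and 9 above 0, with a median of -0.63, against 0.0012 over all ASVs (both medians were the same with absent ASVs at their bounds). The most abundant of them, ASV_038, had a log2 fold change of -1.17 and ASV_045 of 0.17, and that of ASV_045 was -0.15 in DESeq2. Each mouse held 0 to 28 Muribaculaceae ASVs (median 23) in KO-WD and 22 to 36 (median 27) in KO-ND. KO-WD 5, with 0, lowered the KO-WD mean of all these ASVs at once, so their signs are not separate results. The balance of signs without KO-WD 5 was not tested. For unnamed Muribaculaceae as a genus, the log2 fold change was -0.97 with KO-WD 5 and -0.77 without it. Of the 65 Muribaculaceae ASVs in the 16 libraries, 12 were found only in KO-WD, 17 only in KO-ND and 36 on both diets.

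**Figure D4:**
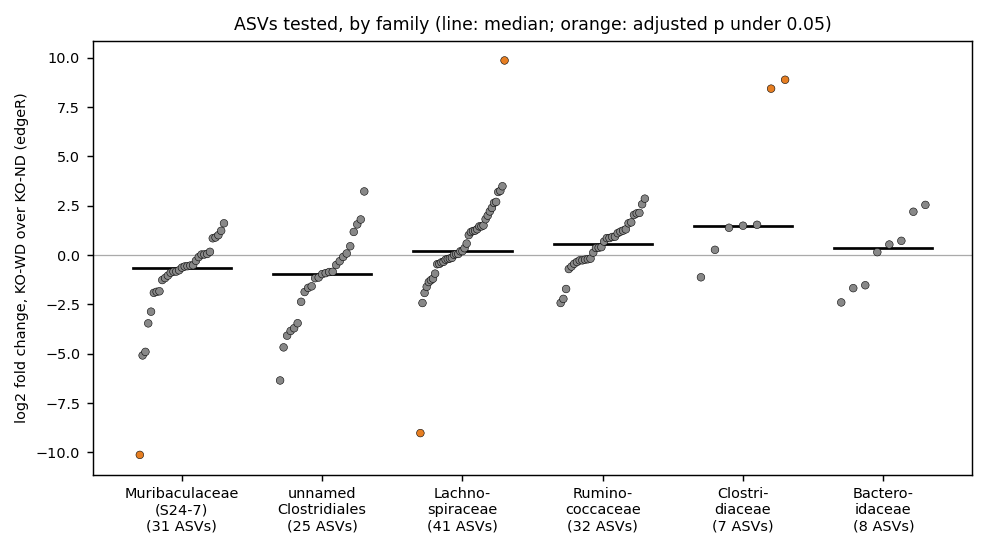
log2 fold changes, KO-WD over KO-ND (vertical axis, edgeR), of the tested ASVs of 6 families, with the median of each family as a line and called ASVs in orange. The medians lie below 0 for Muribaculaceae (-0.63) and unnamed Clostridiales (-0.96) and above 0 for Clostridiaceae (1.49) and Ruminococcaceae (0.54), while single ASVs lie on both sides in each family.

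Other families differed in their balance of ASVs. Unnamed Clostridiales had 19 of 25 tested ASVs below 0 (median -0.96), Lachnospiraceae 25 of 41 above 0 (median 0.20), and Ruminococcaceae 20 of 32 above 0 (median 0.54). Clostridiaceae had 6 of 7 above 0, with a median of 1.49, and 5 to 9 ASVs per mouse (median 7.5) in KO-WD and 2 to 6 (median 4.5) in KO-ND. The Clostridium celatum ASV_005 had 949 to 5363 counts (median 2128) in KO-WD and 0 to 2481 (median 681.5) in KO-ND, with a log2 fold change of 1.39 (adjusted p 0.969). Against it, ASV_015, also a Clostridiaceae ASV and named after its values were seen, had 24.04 to 29.6 counts (median 26.8) per 100 in the 8 KO-WD mice and 22.6 to 26.9 (median 26.02) in the 6 KO-ND mice that held both. The ranges of this ratio overlapped between the diets. ASV_022, of the same family, had 9.92 to 14.2 counts (median 12.2) per 100 of ASV_005 in the 8 KO-WD mice. In the 4 KO-ND mice that held both it had 11.98 to 16.4 (median 12.9), and 3 KO-ND mice held only ASV_005. These ASVs kept similar ratios where found together, so the 6 of 7 Clostridiaceae ASVs above 0 are not separate results. They also include ASV_089 and ASV_116, which had no counts in KO-ND. Among the ASVs of the genera that lead both diets, ASV_001 (Allobaculum) had 3999 to 9679 counts (median 7070.5) in KO-WD and 92 to 12197 (median 6345) in KO-ND, and ASV_003 (Bifidobacterium pseudolongum) had 52 to 1179 (median 667) in KO-WD and 3 to 5326 (median 1710) in KO-ND, with adjusted p of 0.994 for ASV_001 and 0.757 for ASV_003.

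The 2 main Lactococcus ASVs were also named after their values were seen. ASV_007 had 96 to 1392 counts (median 184.5) in all 8 KO-WD mice and 0 to 107 (median 0) in KO-ND, where 2 of 8 mice had it. ASV_006 had 118 to 1474 counts (median 221.5) in all 8 KO-WD mice and 0 to 307 (median 115) in 7 of 8 KO-ND mice. The rank-sum adjusted p was 0.0146 for ASV_007, and edgeR gave adjusted p of 0.426 for ASV_007 and 0.969 for ASV_006. ASV_007 had 72.9 to 94.4 counts (median 84.4) per 100 counts of ASV_006 in the 8 KO-WD mice, while in KO-ND 1 mouse had both (63.6 per 100), 1 had only ASV_007 and 6 had only ASV_006. ASV_006 without ASV_007 was thus found in KO-ND mice and in 0 of 8 KO-WD mice, and ASV_007 was found in all 12 WT LI libraries. The Adlercreutzia ASV_110, named on the same basis, was in 7 of 8 KO-WD and 1 of 8 KO-ND mice (3.87 on the log2 scale, edgeR adjusted p 0.624, rank-sum adjusted p 0.0329).

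The diets differed in which ASVs were present, and a distance weighted by abundance did not pass the test. KO-WD mice held 378 of the 517 ASVs, KO-ND mice 389, and both diets 250. The shared ASVs held 94.5% to 98.4% (median 96.8%) of KO-WD counts and 93.2% to 99.4% (median 97.1%) of KO-ND counts. Of the 128 ASVs only in KO-WD, 95 were in 1 library, and of the 139 only in KO-ND, 102 were. The Jaccard distance (presence or absence of ASVs after drawing 22550 counts from each library) averaged 0.710 between diets, 0.688 within KO-WD and 0.673 within KO-ND. Diet took 10.8% of its variation (permutation test of the distances over all divisions of the mice, exact p = 0.000155, the smallest this design can give; adjusted 0.000311), and 7 of 8 KO-WD and 8 of 8 KO-ND mice were closer to their own group. For the Bray-Curtis distance, which weighs abundant ASVs, diet took 11.3% (exact p = 0.0716, adjusted 0.0716), with mean distances of 0.504 between diets, 0.433 within KO-WD and 0.508 within KO-ND. There 8 of 8 KO-WD but only 3 of 8 KO-ND mice were closer to their own group. Any division of the mice takes some of the variation, so neither percent is the amount due to diet alone. The adjusted Bray-Curtis p was 0.0272 without KO-ND 5, and 0.0653 without both KO-WD 5 and KO-ND 5.

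**Figure D5:**
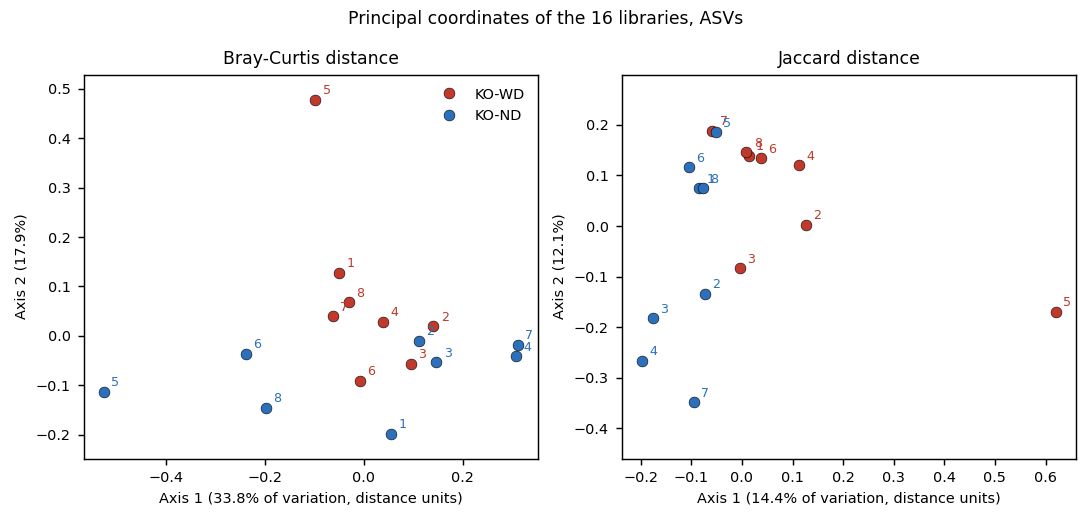
Principal coordinates of the 16 libraries from ASV counts, by Bray-Curtis distance on the left (axis 1, 33.8% and axis 2, 17.9% of variation) and Jaccard distance on the right (14.4% and 12.1%), in units of distance, each point labelled with the mouse number. KO-WD (red) has 6 of 8 mice above 0 on Jaccard axis 1 and KO-ND (blue) 0 of 8. KO-WD 5 lies far out on that axis (0.620, next highest KO-WD 2 at 0.127). Bray-Curtis axis 2 also has 6 KO-WD and 0 KO-ND mice above 0. On Bray-Curtis axis 1 both diets lie on both sides of 0 (3 KO-WD and 5 KO-ND mice above it).

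Diversity within a mouse did not differ beyond the spread. The Shannon index, which counts types and their evenness, was 3.68 to 4.79 (median 4.42) in KO-WD and 2.93 to 5.41 (median 4.36) in KO-ND. The means were 4.34 ± 0.375 in KO-WD and 4.31 ± 0.952 in KO-ND (SD, n = 8 each; exact two-sided rank-sum test, p = 0.959). Richness, the number of ASVs in 22550 drawn counts, averaged 128 ± 25.01 in KO-WD and 134 ± 32.5 in KO-ND (p = 0.574, exact), and Pielou's evenness 0.621 ± 0.0289 in KO-WD and 0.609 ± 0.106 in KO-ND (p = 0.721, exact). All 3 adjusted p were 0.959.

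Whether the diet difference was the same in WT mice was tested as an interaction term over all 28 LI libraries, (KO-WD minus KO-ND) minus (WT-WD minus WT-ND). Of 44 genera 0 passed (0% called; 2 at an unadjusted p under 0.05, unnamed Bacteroidales at 4.87 and Adlercreutzia at 3.21 on the log2 scale, adjusted p 0.720 each), of 8 phyla and 14 classes 0 passed (0% called each), and of 29 families 1 passed (3.45%). The family was Peptococcaceae, strict anaerobes of the Clostridiales, with an interaction of -7.01 (adjusted p 0.0032), a fitted value that depends on the prior count because 1 group is at 0. It had no counts in the 8 KO-WD mice and 27 counts in 4 KO-ND mice, and averaged 3.19% in WT-WD (6 of 6 mice) and 0.700% in WT-ND. Of its genera in WT LI, rc4-4 was higher in WT-WD (log2 fold change 2.25, edgeR adjusted p 0.0733). Unnamed Peptococcaceae were lower there (-1.98, adjusted p 0.355). Unnamed Peptococcaceae did not pass the interaction test (-2.84, adjusted p 0.720). For rc4-4 that test could not pass, because the genus had no counts in either KO LI group (-2.25, SE 3454, adjusted p 0.9997). The family value thus joins genera whose WT differences point opposite ways. Lactococcus averaged 10.2 ± 5.74% in WT-WD and 6.63 ± 4.29% in WT-ND (SD, n = 6 each), and its interaction was 1.62 (adjusted p 0.720). Bifidobacterium averaged 0.684 ± 0.789% in WT-WD and 9.26 ± 5.72% in WT-ND, and Muribaculaceae 8.21 ± 5.56% in WT-WD and 15.1 ± 5.36% in WT-ND. A p that misses the threshold does not show that the diet acted alike in both genotypes.

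The diet difference in the LI was also set against that in the SI over 32 libraries, with the mouse as a block. The labels number the samples but name no animal, so that an SI and an LI library of the same number being 1 mouse is an assumption. Of 8 phyla 1 passed (12.5%), Bacteroidetes with a difference of 5.25 on the log2 scale (adjusted p 0.0368), and of 14 classes 1 (7.14%), Bacteroidia with 5.08 (adjusted p 3.25e-05). Both passed in each alternative run for the site difference, but they are 1 result. Bacteroidia had the same lowest, median and highest share as Bacteroidetes at each site on each diet. The ranks were fitted apart, so the smaller p of the class is not added evidence. Of 41 genera 2 passed (4.88%), unnamed Clostridiales with 5.52 and unnamed Muribaculaceae with 5.29 (adjusted p 0.0205 each). Of 31 families the same 2 lineages were the ones that passed (6.45%). In the SI, Muribaculaceae were found in 2 of 8 KO-WD mice at a mean of 0.0166% and in 7 of 8 KO-ND mice at 0.866%, and unnamed Clostridiales in 1 of 8 KO-WD mice at 0.00359% and in 6 of 8 KO-ND mice at 0.613%. A positive value means that the KO-WD over KO-ND difference was less negative in LI than in SI, where it was -5.67 for Muribaculaceae. The SI counts behind it are few, and with a filter of 0.1% mean share both genera had an adjusted p of 0.0597. Without the mouse block, Muribaculaceae no longer passed (adjusted p 0.064 as genus and 0.0637 as family) and unnamed Clostridiales did (0.0167 as genus), together with the genera unnamed Desulfovibrionaceae (0.0167) and unnamed Ruminococcaceae (0.0441). With TMM factors the family Muribaculaceae had an adjusted p of 0.0676.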

How the data were processed

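Per the study's design text, the authors picked reads by primer (FASTX-Toolkit 0.0.14), trimmed by quality (Sickle 1.33), joined read pairs (FLASH 1.2.11), denoised the sequences (DADA2, QIIME 2 2021.4) and named them from Greengenes 13_8. The deposited table holds raw counts of 938 ASVs in 56 libraries, not normalized. The lowest count above 0 was 2.

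Counts were summed by lineage. At each rank a taxon was tested, KO-WD LI against KO-ND LI, with edgeR 4.0.16 in R 4.3.3 if its mean share reached 0.01% and it had counts in 4 or more of the 16 libraries, at a threshold of 0.05. The standard error is the size of the log2 fold change divided by the square root of F. Alternatives were TMM factors, DESeq2 1.42.0, limma 3.58.1 on centred log ratios (0.5 added), other filters, the exact rank-sum test, all 4 LI groups in 1 fit, a replicate block and leaving out each mouse. Diversity was averaged over 100 draws of 22550 counts (numpy 2.4.6, scipy 1.17.1). The edgeR fit of KO-WD LI against KO-ND LI was also run on simulated counts of genera and ASVs. The other tests were not, and no outcome of the simulation is used here.

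The comparison and its taxon lists were chosen with earlier results of these data known. The taxa named are every tested phylum and class, called genera and families, the 10 most abundant genera, list members with counts, called ASVs (up to 5 in each direction), the 3 most abundant ASVs of each of the 6 most abundant genera, and, for the interaction and the site difference, up to 5 genera with the smallest adjusted p. Others are said to be named after their values were seen. The V3–V4 region and Greengenes leave many ASVs without a genus or species name.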

Additional observations from a re-analysis of the deposited data

Results flagged for a closer look

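Single mice that lay far from the rest of their group by Dixon's test at the 95% level are given here. For normally distributed values, chance gives such a value in about 1 of 20 groups. Many of these shares are skewed or 0 in most mice, and every flagged value was the highest of its group. The rate for such shares was not tested and can be higher. Nested ranks (a genus that is nearly all of its phylum) repeat the same mouse.

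KO-WD 5 was the highest KO-WD mouse for 23.1% Bacteroides, 16.6% Deltaproteobacteria and unnamed Desulfovibrionaceae, 17.2% Proteobacteria, 0.945% Deferribacteres and Mucispirillum, 0.582% Betaproteobacteria and Sutterella, 0.905% Coprococcus, 0.704% Roseburia and 0.105% Anaerotruncus, and its mean Bray-Curtis distance to its group was 0.591. KO-ND 5 was the highest KO-ND mouse for 0.150% Alphaproteobacteria, 0.477% Coprococcus and 11.3% Turicibacter, with a mean distance of 0.699. KO-WD 7 had 0.363% TM7 (class TM7-3, unnamed F16), 0.0836% Tenericutes (class Mollicutes) and 8.49% Verrucomicrobia (class Verrucomicrobiae, Akkermansia). KO-WD 3 had 9.64% Lactococcus and 9.70% Streptococcaceae, with 4.68% in ASV_007 and 4.96% in ASV_006. KO-WD 2 had 4.94% Coriobacteriia and 4.86% unnamed Coriobacteriaceae. KO-WD 1 had 0.220% Streptococcus and 0.136% Dorea, KO-WD 6 had 10.5% Ruminococcus and KO-WD 4 had 1.48% ASV_094. In KO-ND, the single high values were 0.0242% Dorea in KO-ND 8, 5.14% Ruminococcus and 0.0423% ASV_110 in KO-ND 6, 2.40% ASV_038 in KO-ND 3 and 1.12% ASV_006 in KO-ND 2.

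The diet difference itself differed between groups, by edgeR's interaction test, in 7 tests. Between genotypes it did so for the family Peptococcaceae (-7.01 on the log2 scale, KO minus WT). Its unnamed genus did not pass, and rc4-4, without counts in KO LI, could not. Between sites it did so for the phylum Bacteroidetes (5.25, LI minus SI) and its class Bacteroidia (5.08), which are the same result. It also did so for the family S24-7 of that class (5.12) and unnamed Clostridiales (5.42). The same lineages passed when tested as genera (5.29 for S24-7 and 5.52 for unnamed Clostridiales).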

How the results depend on the processing

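ASV_094, ASV_112 and ASV_166 were called in every alternative run for them, but these alternatives reuse the same mice and include the unadjusted and unfiltered tests. The low counts behind ASV_089 and ASV_116 (4 mice each) limit both. Neither passed on centred log ratios (0.121 and 0.160), with the replicate block (0.185 and 0.245) or in the rank-sum test. Without any 1 of its own 4 mice each fell below the filter and was not tested. In the other fits with 1 mouse left out ASV_089 passed (0.0108 to 0.0486), and ASV_116 passed except without KO-ND 4 (0.0501) or KO-ND 7 (0.0532). The numbers of the mice do not pair them: correlations of same-numbered mice ran between -0.394 and 0.200 and 0 of 8 KO-WD mice were closest to their own number. With the replicate block 2 phyla, 0 classes, 0 families, 0 genera and 5 ASVs (1 higher, 4 lower) passed.

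The number called, against 0 phyla, 0 classes, 0 families, 0 genera and 5 ASVs, was 3, 2, 3, 8 and 24 by the unadjusted rank-sum test, and 1 family, 2 genera and 8 ASVs by the adjusted one. It was 1 family and 1 genus with 4 groups in 1 fit, 1 genus and 12 ASVs on centred log ratios, 8 ASVs in DESeq2, and 251 of 517 ASVs without a filter (120 higher, 131 lower). Keeping blank and missing genus names apart, an alternative added after seeing the data, gave 0 of 43 genera. Leaving out KO-WD 5 and KO-ND 5 gave 2 phyla, 2 classes and 3 families. Leaving out 1 mouse at a time gave 0 to 1 phyla (1 without KO-ND 5, KO-WD 5 or KO-WD 7), 0 to 1 classes (1 without KO-WD 7) and 3 to 7 ASVs (3 without KO-WD 4, KO-WD 5 or KO-WD 6, where the filter removes ASV_089 and ASV_116, and 7 without KO-ND 5 or KO-ND 6). The site difference gave 0 genera and 0 families with a filter of 0.1%. The adjusted Bray-Curtis p was 0.0272 to 0.122 when 1 mouse was left out. TMM factors moved the median log2 fold change by 0.18 for phyla, 0.19 for classes, 0.53 for families and 0.18 for ASVs, and centred log ratios by 0.53 for phyla, 0.28 for classes and -0.17 for families. DESeq2 moved it by 0.15 for phyla, -0.25 for families and -0.11 for genera.

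The sign of the log2 fold change, or of the difference in mean rank, was the opposite of that given above in 143 of the alternatives for single taxa; the adjusted p under each follows, and the cause was not tested. On centred log ratios these were Actinobacteria (0.916) and Bacteroidetes (0.880) as phyla, Alphaproteobacteria, Bacilli and Bacteroidia (0.910 each), Betaproteobacteria (0.878), SMB53 (0.348), Bacteroides (0.834), AF12 and Mucispirillum (0.786 each), unnamed Rikenellaceae (0.564), Sutterella (0.562), Turicibacter (0.256), ASV_023 (0.993) and ASV_045 (0.793). In DESeq2 they were Deferribacteres (0.947 as phylum, 0.931 as class), Alphaproteobacteria (0.931), Bacilli (0.843), Betaproteobacteria (0.141), Allobaculum (0.638), Sutterella (0.387), Mucispirillum (0.734), ASV_001 (0.969) and ASV_045 (0.993). With TMM factors they were Bacilli (0.912), Allobaculum (0.668), SMB53 (0.972), unnamed Rikenellaceae (0.987) and Sutterella (0.916). With the replicate block they were Deferribacteres (0.686 as phylum, 0.782 as class), Betaproteobacteria (0.417), SMB53 (0.654), unnamed Rikenellaceae (0.975), Sutterella and Turicibacter (0.515 each), Mucispirillum (0.856), ASV_045 and ASV_014 (0.998 each). In the rank-sum test, adjusted and then unadjusted, they were Deferribacteres (0.817 as phylum and 0.956 as class, 0.715 unadjusted), Betaproteobacteria (0.524, 0.282), SMB53 (0.621, 0.367), Sutterella (0.579, 0.282), Turicibacter (0.621, 0.374), Mucispirillum (0.883, 0.715) and ASV_023 (1, 0.948).

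Without KO-WD 5 and KO-ND 5 they were Deferribacteres (0.746 as phylum, 0.789 as class), Alphaproteobacteria (0.789), Bacilli and Erysipelotrichi (0.842 each), Betaproteobacteria (0.0280), Allobaculum and SMB53 (0.865 each), Bacteroides and Parabacteroides (0.976 each), Sutterella (0.0567), Mucispirillum (0.709), ASV_001 (0.984) and richness (0.902). With 1 mouse left out, the adjusted p of taxa whose sign turned at least once ran from 0.191 to 0.795 for Deferribacteres as phylum and 0.411 to 0.961 as class, 0.282 to 0.999 for Proteobacteria, 0.645 to 0.999 for Verrucomicrobia, 0.810 to 0.987 for Verrucomicrobiae and Bacilli, 0.665 to 0.975 for Alphaproteobacteria, 0.0635 to 0.975 for Betaproteobacteria, 0.861 to 0.975 for Erysipelotrichi, 0.866 to 0.997 for Allobaculum, 0.856 to 0.997 for Lactobacillus and SMB53, 0.574 to 0.936 for Bacteroides, 0.113 to 0.997 for Sutterella, 0.584 to 0.958 for Coprococcus, 0.344 to 0.968 for Ruminococcus, 0.842 to 0.997 for Akkermansia, 0.390 to 0.829 for Mucispirillum, 0.983 to 0.9996 for ASV_001, ASV_002 and ASV_023, 0.979 to 0.9996 for ASV_045 and 0.779 to 1 for the 3 measures of alpha diversity.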
